A study of Mus musculus with 4 samples.

Results

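The cells described here are Cxcr6-positive T cells of the mouse liver, called Cxcr6 T cells below. They were chosen from 4 single-cell libraries by their UMIs, the counted RNA molecules, and not by a sort or a clustering. Barcodes were kept if they held between 500 and 6000 genes with a UMI and drew no more than 10% of their UMIs from mitochondrial genes. Members had at least 2 UMIs over Cd3e and Cd3d, which encode chains of the CD3 signalling complex, and at least 1 UMI of the chemokine receptor gene Cxcr6. They had 0 UMIs of the naive T cell genes Lef1, Dapl1 and Ccr7, of the B cell gene Cd79a and of the Kupffer cell gene Clec4f, and under 0.2% of their UMIs in 6 endothelial genes together. The rule found 785 members among 30362 kept barcodes of 44974 deposited ones: 101 in WT, 169 in YAPKO, 243 in TAZKO and 272 in DKO. The genes of the rule chose the cells and are given as description, with no test.

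The study used mice that lose Yap1 (YAPKO), Wwtr1, the gene of TAZ (TAZKO), or both (DKO) from floxed alleles through Alb-Cre, a Cre recombinase driven by the albumin promoter. That Cre acts in hepatocytes and bile duct cells, and no deletion is intended in T cells, where the alleles were not measured. The WT mouse is labelled wildtype, all mice were untreated, their ages are not stated in the labels, and each genotype is 1 mouse and 1 library, so no difference between genotypes has replicates. Hepatocytes and the other liver cells were isolated separately and mixed before loading, so shares of all cells depend on the mixing. In rows of 4 values the order is WT, YAPKO, TAZKO and DKO. Yap1 had 2, 1, 6 and 2 UMIs and Wwtr1 0, 1, 0 and 0 in the members, too few to check the labels in these cells.

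As background, Cxcr6 is the receptor for Cxcl16, a membrane-bound chemokine that endothelial cells and macrophages of the liver carry. Mouse liver holds several kinds of T cells with Cxcr6, among them natural killer T cells, resident memory CD8 T cells and gamma delta T cells, which patrol the sinusoids or stay there. Il2rb encodes the receptor chain shared by interleukin 2 and interleukin 15, on which many of these cells depend.

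The libraries hold 66259687, 85989454, 49022089 and 77411746 UMIs, made with a 10x kit that tags the 3' end of each RNA. The members hold 508706, 863972, 1115618 and 1089866 of them, with a median of 4450, 4556, 4139 and 3185 UMIs and 1744, 1774, 1750 and 1393 genes per cell. Members from DKO are thus the shallowest, which lowers the chance of seeing any 1 gene in a cell. Their median mitochondrial share is 1.19, 1.15, 1.38 and 1.04%. Over the 6 pairs of libraries 214 barcode sequences occur in both, 96 of them kept, and 0 among the members. No doublet caller was run. The gates remove barcodes with Cd79a or Clec4f UMIs or with 0.2% or more endothelial UMIs. Other markers of these cell types remain in the members and are given near the end. Levels are CPM, the UMIs of a gene per 1000000 UMIs of the same cells, and 95% intervals in parentheses (exact Poisson for CPM, Clopper-Pearson for shares, conditional binomial for log2 ratios) cover counting error only.

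The label was checked with Il2rb and Trgc1, which the rule did not use. Il2rb stood at 448 CPM (392 to 510.3) in WT, 523 (476 to 574) in YAPKO, 764 (713 to 817) in TAZKO and 459.7 (420.3 to 502) in DKO. TAZKO is the highest of the 4, and the intervals of the other 3 overlap each other. In naive-like T cells, which pass the same T cell gate with 0 Cxcr6 UMIs and at least 1 UMI of Lef1, Dapl1 or Ccr7, Il2rb was lower in each library, at 71.4, 102, 111 and 169.7 CPM (log2 fold change 2.11, adjusted p 2.84e-07, higher in 4 of 4 libraries). It does not set the members apart from NK and ILC1-like cells, described below (461, 658, 863 and 1073 CPM; log2 fold change -0.34, adjusted p 0.303, lower in 4 of 4 libraries). Of the members, 78.2, 81.1, 87.7 and 71.7% carried an Il2rb UMI, against 0.223, 0.220, 0.670 and 0.279% of B cells, whose median depths are 2978, 2916, 2933 and 2252 UMIs. After thinning every cell to 1000 UMIs the shares were 35.6, 39.0, 47.7 and 40.8% in the members and 0.223, 0, 0.168 and 0% in B cells. Trgc1 encodes a constant region of the gamma chain of the gamma delta receptor, and its Ensembl identifier in the files is ENSMUSG00000076749. Trgc1 stood at 208 CPM (171 to 252) in WT, 216 (186 to 249.8) in YAPKO, 104 (85.9 to 125) in TAZKO and 81.7 (65.6 to 100.5) in DKO, high in WT and YAPKO and lower in TAZKO and DKO. It was above the naive-like cells in every library (25.5, 8.60, 6.75 and 6.71 CPM there; log2 fold change 3.63, adjusted p 1.81e-08, higher in 4 of 4 libraries). A Trgc1 UMI was seen in 43.6, 41.4, 24.3 and 20.2% of members, or 12.9, 18.9, 6.996 and 10.7% after thinning, and in none of the B cells. Residence in the liver was not measured, so the name used here is that of the gene. Itgae, the integrin chain of resident T cells in epithelia, had only 5, 15, 1 and 11 UMIs in the members, while Itga1, another integrin chain of resident T cells, was frequent, as described with the residency genes.

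Cells near the edges of the rule were compared as a description. Members with exactly 1 Cxcr6 UMI numbered 13, 29, 80 and 108, or 12.9, 17.2, 32.9 and 39.7% of the members, and had 197, 452, 789 and 403 CPM of Il2rb. Those with 2 or more had 486, 538, 752 and 492 CPM. Just outside, T cells with 0 Cxcr6 UMIs and no UMI of the 3 naive genes had 290.1, 301, 540.5 and 325 CPM of Il2rb and 163, 40.7, 28.7 and 41.5 of Trgc1. Their Il2rb lies between that of the members and the 71.4, 102, 111 and 169.7 CPM of the naive-like cells, except in WT, where the members with 1 Cxcr6 UMI are lower. T cells with Cxcr6 and exactly 1 naive gene UMI, which the rule leaves out, numbered 33, 62, 81 and 91 and had 572, 508, 711 and 512 CPM of Il2rb, like the members. At the CD3 edge, 0, 2, 10 and 7 members had a CD3 sum of exactly 2, and 3, 6, 6 and 4 cells failed only for a sum of 1.

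The T cell gate without the Cxcr6 and naive genes held 309, 577, 697 and 834 cells. Cxcr6 T cells were 32.7% of it in WT (27.5 to 38.2), 29.3% in YAPKO (25.6 to 33.2), 34.9% in TAZKO (31.3 to 38.5) and 32.6% in DKO (29.4 to 35.9). The 4 intervals overlap, so no library stands apart by this rule. With at least 2 Cxcr6 UMIs the shares were 28.5, 24.3, 23.4 and 19.7%, and the intervals of WT (23.5 to 33.9) and DKO (17.02 to 22.5) do not overlap. Without cells holding 2 or more UMIs of Kupffer, neutrophil or B cell genes YAPKO, the lowest here, was the highest (37.1, 41.75, 33.4 and 33.5%). With the gates applied after thinning to 1000 UMIs the shares were 30.7, 25.3, 24.4 and 25.1%. Naive-like cells were 40.1, 39.5, 33.6 and 28.7% of the gate, highest in WT and YAPKO and lowest in DKO. T cells with UMIs of neither Cxcr6 nor the naive genes were 8.09, 9.53, 12.2 and 21.9%, highest in DKO. The remaining T cells, with both, were 19.1, 21.7, 19.4 and 16.8%. All these shares depend on depth, as a gene is missed more often in a shallow cell. Cells of the T cell gate had a median of 4636, 4634, 4082 and 3189 UMIs, lowest in DKO. Only the share of Cxcr6 T cells was repeated after thinning, and for the other groups the part of depth was not tested. Of all kept barcodes the members were 1.41, 2.69, 2.81 and 3.28%.

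**Figure D1:**
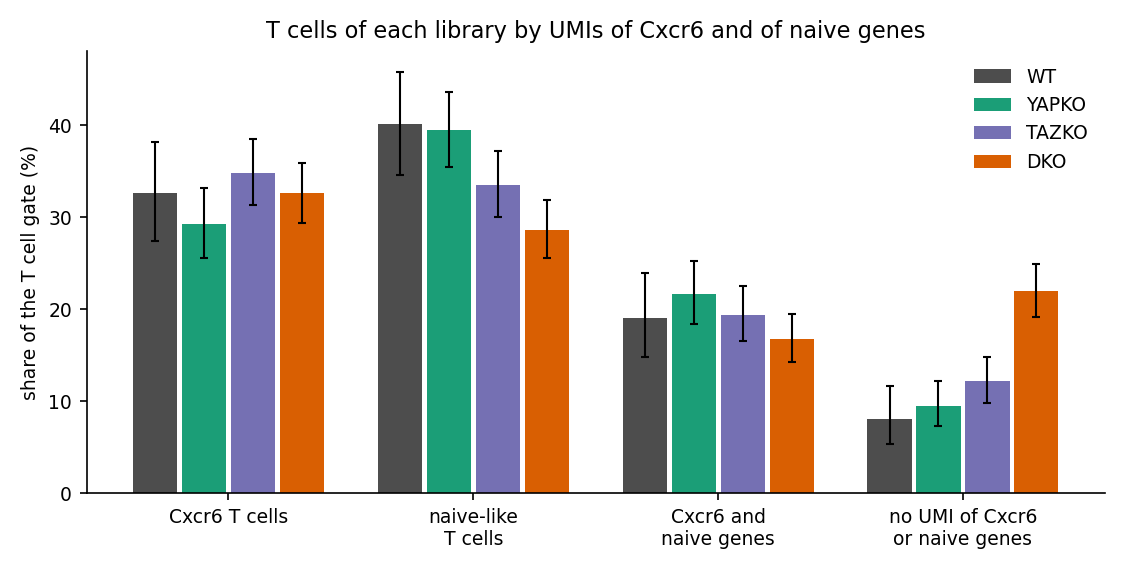
Share of the T cell gate (%, vertical axis) in 4 groups of T cells for each library, with exact 95% Clopper-Pearson intervals. The Cxcr6 T cells lie between 29.3% and 34.9% in the 4 libraries with overlapping intervals. The T cells with neither Cxcr6 nor naive gene UMIs are highest in DKO, whose T cells are also the shallowest.

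Across genes the members were compared with naive-like T cells and with NK and ILC1-like cells, on UMIs summed per library and population with the library as a block in edgeR. The latter were kept cells with 0 UMIs of Cd3e, Cd3d and Cd3g and at least 2 of Ncr1 and Klrb1c, 37, 100, 53 and 25 cells. The question is how Cxcr6 T cells differ from T cells with naive gene UMIs and from innate lymphocytes that share their effector genes. The other T cells of the gate are in neither comparison, and recirculation was not measured. The p-values measure the spread across the 4 libraries, which are mice of different genotypes. Against naive-like cells 1083 of 7493 genes were called at an adjusted p under 0.05 (14.5%), 566 higher in the members (7.55%) and 517 lower (6.9%). All 4 libraries had the same direction for 1013 of them, 295 were more than 2-fold higher and 181 more than 2-fold lower. Leaving out a library lowered the count of calls to 685 without YAPKO and 684 without TAZKO. Against NK and ILC1-like cells 540 genes were called (7.21%), 320 higher (4.27%) and 220 lower (2.94%), 498 of them with the same direction in all 4 libraries. That count fell to 306 without YAPKO and 275 without TAZKO. Genes used by any of the gates were left out of both. The median log2 fold change over all genes tested was -0.01 against naive-like cells and 0.03 against NK and ILC1-like cells.

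Genes of tissue residency were mostly higher than in naive-like cells. Of 15 genes on the list 13 were tested, 10 were called higher and 0 lower, and the list's median log2 fold change was 1.75. Itga1, the collagen-binding integrin chain CD49a, stood at 157 CPM (125 to 196) in WT, 113 (92.1 to 138) in YAPKO, 182 (158 to 209) in TAZKO and 107 (88.8 to 129) in DKO, and at 5.10, 3.13, 16.4 and 13.4 CPM in naive-like cells (log2 fold change 3.63, adjusted p 8.05e-08, higher in 4 of 4 libraries). The 4 values are within 2-fold of each other and all are far above those of the naive-like cells. Itga1 was also above the NK and ILC1-like cells, at 46.1, 70.2, 70.1 and 76.7 CPM (log2 fold change 1.07, adjusted p 0.0165, higher in 4 of 4 libraries), a call lost in 2 of the repeats on 3 libraries (adjusted p 0.0683 without WT and 0.172 without TAZKO). Rgs1 encodes a regulator that dampens chemokine receptor signals. Rgs1 was at 218 CPM in WT, 280.1 in YAPKO, 272 in TAZKO and 258 in DKO, against 40.8, 75.8, 34.7 and 75.8 CPM in naive-like cells (log2 fold change 2.02, adjusted p 2.47e-07, higher in 4 of 4 libraries). Cd44, an adhesion receptor of antigen-experienced T cells, was at 70.8 CPM in WT, 106 in YAPKO, 148 in TAZKO and 116 in DKO, lowest in WT, and above the 5.10, 22.7, 30.9 and 47.0 CPM of naive-like cells in each library (log2 fold change 1.86, adjusted p 7.52e-06, higher in 4 of 4 libraries). P2rx7, a receptor for extracellular ATP, was at 74.7, 81.0, 69.9 and 62.4 CPM and higher than in both other populations (log2 fold change 1.75, adjusted p 6.52e-05 against naive-like cells and 2.40, 0.000700 against NK and ILC1-like cells, both higher in 4 of 4 libraries). Bhlhe40, a regulator of mitochondrial fitness in resident cells, was at 25.6 CPM in WT, 60.2 in YAPKO, 73.5 in TAZKO and 73.4 in DKO. It was lower in WT than in the other 3 libraries, and above naive-like cells in each (log2 fold change 1.60, adjusted p 8.64e-05, higher in 4 of 4 libraries). Cd69, which holds back S1pr1 at the cell surface and rises on activation, gave no call against naive-like cells. It had 94.4, 215, 180.2 and 186 CPM in the members and 169.9, 211, 160.0 and 149.6 in naive-like cells (log2 fold change -0.20, adjusted p 0.508, lower in 1 of 4 libraries). Prdm1 and Zfp683, which encode the factors Blimp-1 and Hobit, were rare, at 9, 17, 24 and 30 and 9, 16, 22 and 11 UMIs. Prdm1 was called higher (log2 fold change 1.78, adjusted p 0.00315, higher in 4 of 4 libraries) and Zfp683 had too few UMIs to be tested. Of the 13 tested residency genes 4 were higher than in NK and ILC1-like cells (2 without TAZKO), namely P2rx7, Cd69, Rbpj and Itga1. Another 2, Xcl1 and Ahr, were lower (1 without YAPKO, TAZKO or DKO), and the median was -0.29.

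Genes of recirculation and the naive state moved the other way. Of 14 genes 12 were called lower and 0 higher, with a median log2 fold change of -1.49. Klf2 encodes the factor that drives the exit genes of T cells. Klf2 was at 86.5 CPM in WT, 113 in YAPKO, 78.0 in TAZKO and 45.9 in DKO, lowest in DKO, against 754, 739.7, 579 and 566 CPM in naive-like cells (log2 fold change -3.25, adjusted p 1.35e-08, lower in 4 of 4 libraries). S1pr1 is the receptor by which T cells leave tissue toward blood and lymph. It stood at 19.7 CPM in WT, 28.9 in YAPKO, 20.6 in TAZKO and 12.8 in DKO, against 143, 242, 266 and 169.7 (log2 fold change -3.55, adjusted p 2.63e-09, lower in 4 of 4 libraries). For Klf2 and S1pr1 no member value reaches the lowest value of the naive-like cells. Tcf7, a factor of naive and memory T cells, was at 49.1, 70.6, 102 and 75.2 CPM against 353, 317, 474 and 338 (log2 fold change -2.50, adjusted p 9.93e-08, lower in 4 of 4 libraries). Il7r, the interleukin 7 receptor, was lower than in naive-like cells but remained frequent, at 305 CPM (259 to 357) in WT, 478 (433 to 526) in YAPKO, 363 (328 to 400.2) in TAZKO and 673 (625 to 723) in DKO (log2 fold change -1.12, adjusted p 0.000256, lower in 4 of 4 libraries). DKO is the highest and WT the lowest of the 4. The list also holds Ly6c2, a surface protein of central memory and effector cells, which was not called (log2 fold change 0.54, adjusted p 0.144, higher in 4 of 4 libraries), and Ms4a4b (log2 fold change -0.20, adjusted p 0.314, lower in 2 of 4 libraries). Against NK and ILC1-like cells 2 of 14 genes, Actn1 and Satb1, were higher and 2, among them Klf2, lower, with a median of -0.10. Neither Actn1 nor Satb1 is called without WT, without YAPKO or without TAZKO.

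**Figure D2:**
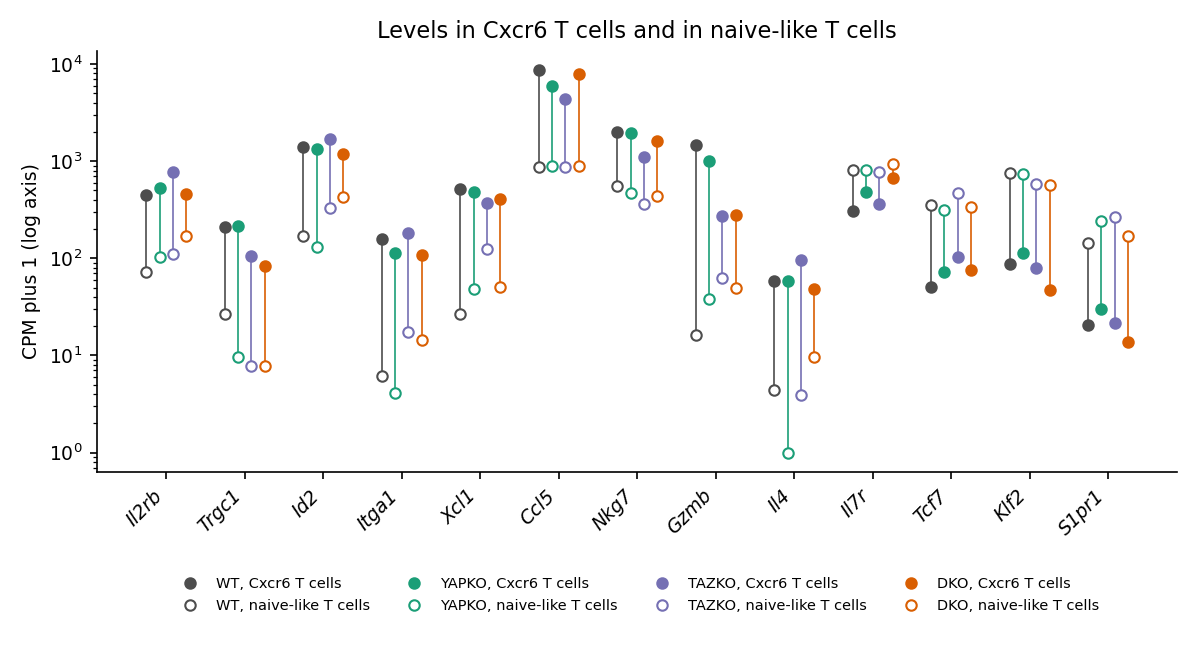
Level (CPM plus 1, log axis) of 13 genes in each library, with filled points for Cxcr6 T cells and open points for naive-like T cells. For Il2rb, Trgc1, Id2, Itga1, Xcl1, Ccl5, Nkg7, Gzmb and Il4 the filled points lie above the open ones in all 4 libraries, and for Il7r, Tcf7, Klf2 and S1pr1 they lie below.

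The receptor genes show a mixed population. Trac, the constant region of the alpha chain, was at 598 CPM in WT, 653 in YAPKO, 577 in TAZKO and 717 in DKO, near the 607, 828, 487 and 523 CPM of naive-like cells (log2 fold change -0.10, adjusted p 0.777, lower in 2 of 4 libraries), and Trbc2 of the beta chain was level with them too (log2 fold change -0.02, adjusted p 0.948; in CPM it was higher in 4 of 4 libraries). Both were above NK and ILC1-like cells (log2 fold change 5.02 and 1.70, adjusted p 1.01e-08 and 2.43e-07, higher in 4 of 4 libraries). Trgc2, a further gamma constant region, was at 191 CPM in WT, 176 in YAPKO, 99.5 in TAZKO and 99.1 in DKO against 16.99, 7.82, 9.64 and 10.6 in naive-like cells (log2 fold change 3.48, adjusted p 1.35e-08, higher in 4 of 4 libraries). Trdc, the constant region of the delta chain, was at 399 CPM (346 to 458) in WT, 272 (238 to 309) in YAPKO, 57.4 (44.2 to 73.3) in TAZKO and 83.5 (67.2 to 102) in DKO. WT and YAPKO are high and TAZKO and DKO low, and the WT interval lies above that of every other library. Trdc was higher than in naive-like cells (log2 fold change 1.49, adjusted p 0.00502, higher in 4 of 4 libraries), a call that is lost without YAPKO (adjusted p 0.0927). The gamma genes are near copies of each other, so the assignment of UMIs among Trgc1, Trgc2 and Trgc4 is uncertain. A gamma locus can be transcribed in alpha beta T cells too, and Trgc1 UMIs were not confined to cells with Trdc: cells without a Cd4, Cd8 or Trdc UMI held 59.4, 66.8, 61.2 and 58.4% of them. Variable segments were looked up after these values were seen. Trgv2 was at 155 CPM in WT, 159.7 in YAPKO, 95.9 in TAZKO and 94.5 in DKO in the members and 11.9, 9.38, 12.5 and 19.2 in naive-like cells, and Trgv1, Trgv4 and Trgv6 were at 51.1, 25.5, 6.28 and 11.9, 13.8, 17.4, 6.28 and 6.42 and 5.90, 11.6, 0.896 and 3.67 CPM. Trdv4 had 7.86, 12.7, 6.28 and 1.83 CPM in the members and 59.2, 36.2, 48.6 and 63.9 in NK and ILC1-like cells. Of 15 receptor complex genes tested, 6 were called higher and 3 lower (1 without TAZKO) against naive-like cells (median -0.02), and 11 higher and 0 lower against NK and ILC1-like cells (median 1.84). Zap70, the kinase that couples the receptor to its targets, was among those higher in both (log2 fold change 0.83, adjusted p 0.000221, higher in 4 of 4 libraries against naive-like cells), as was the surface protein Thy1 (log2 fold change 0.59, adjusted p 0.00354, higher in 4 of 4 libraries). The Zap70 call against NK and ILC1-like cells is lost in repeats on 3 libraries (adjusted p 0.0731 without WT, 0.188 without YAPKO, 0.107 without TAZKO and 0.136 without DKO).

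By coreceptor the members fell into cells with Cd8a or Cd8b1 but no Cd4 UMI (Cd8-bearing), with Cd4 but no Cd8a or Cd8b1 UMI (Cd4-bearing), with Trdc but no Cd4 or Cd8b1 UMI (Trdc-bearing) and with none of these. A cell with Trdc and Cd8a UMIs counts in 2 of the groups. Cd8-bearing cells were 22.8% (15.0 to 32.2) in WT, 13.0% (8.34 to 19.0) in YAPKO, 12.8% (8.84 to 17.6) in TAZKO and 26.8% (21.7 to 32.5) in DKO. Cd4-bearing cells were 4.95% (1.63 to 11.2) in WT, 11.2% (6.91 to 17) in YAPKO, 17.3% (12.8 to 22.6) in TAZKO and 14.0% (10.1 to 18.7) in DKO, with 5, 19, 42 and 38 cells. Trdc-bearing cells were 24.8% (16.7 to 34.3) in WT, 16.6% (11.3 to 23.1) in YAPKO, 5.76% (3.19 to 9.48) in TAZKO and 5.15% (2.84 to 8.48) in DKO. Cd8-bearing cells are most frequent in WT and DKO, Cd4-bearing cells least frequent in WT, and Trdc-bearing cells several times more frequent in WT and YAPKO than in TAZKO and DKO. Cells with none were the largest group in each library, 53.5, 59.8, 65.0 and 54.0%. That group depends on depth, and thinned to 1000 UMIs it rose to 64.4, 81.1, 80.2 and 66.9%. The other 3 fell to 16.8, 7.69, 9.46 and 22.4%, 1.98, 2.96, 6.17 and 7.72% and 20.8, 10.1, 4.53 and 3.31%, with the same libraries high for Cd8 and Trdc. In B cells the Cd8-bearing share was 0, 0, 0.168 and 0%, the Cd4-bearing share 0.445, 0.659, 0.335 and 1.39% and the Trdc-bearing share 0, 0, 0 and 0%. Cells with Cd4 and Cd8 UMIs together were 0, 2, 0 and 4 members and 0, 0, 0.838 and 1.39% of B cells. WT has 5 Cd4-bearing cells, under the 10 needed in each library, so genes were not tested between the Cd8-bearing and Cd4-bearing cells.

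**Figure D3:**
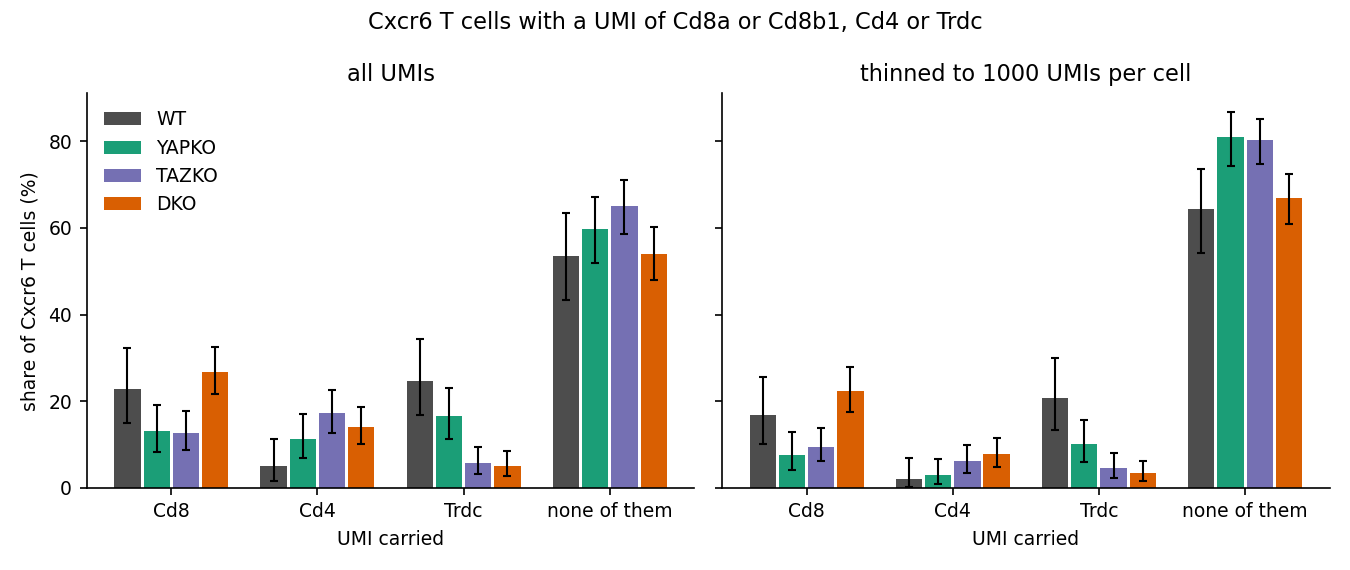
Share of Cxcr6 T cells (%, vertical axis) with Cd8, Cd4, Trdc or none of these UMIs in each library, with all UMIs and after thinning to 1000 UMIs, and 95% Clopper-Pearson intervals. The Trdc-bearing share is higher in WT and YAPKO than in TAZKO and DKO at both depths, and the group with none grows after thinning.

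Genes of particular T cell lineages differed between libraries. Zbtb16 encodes PLZF, the factor of natural killer T cells and some gamma delta T cells. Zbtb16 was at 25.6 CPM (13.6 to 43.7) in WT, 16.2 (8.86 to 27.2) in YAPKO, 55.6 (42.6 to 71.2) in TAZKO and 21.1 (13.4 to 31.7) in DKO, highest in TAZKO, against 3.40, 0.782, 1.93 and 5.75 CPM in naive-like cells (log2 fold change 3.08, adjusted p 4.36e-05, higher in 4 of 4 libraries). Klrb1c encodes NK1.1, carried by natural killer cells and many natural killer T cells of some mouse strains. It is a gate gene of the NK and ILC1-like cells and was not tested. It had 4, 12, 128 and 10 UMIs in 4, 10, 80 and 10 members, or 3.96, 5.92, 32.9 and 3.68% of cells and 2.97, 1.77, 9.05 and 0.735% after thinning, so that most Klrb1c UMIs came from TAZKO. In TAZKO the 80 members with a Klrb1c UMI had 68.6 CPM of Zbtb16, 107 of Il4 and 949.8 of Il2rb, and the other 163 members had 49.2, 89.2 and 674. Of these 3 pairs the intervals of Il2rb do not overlap, and those of Zbtb16 and Il4 do. Cd163l1, a gene of interleukin 17-producing gamma delta T cells, had 7, 10, 1 and 4 UMIs. Foxp3, the factor of regulatory T cells, had 3, 12, 0 and 17 UMIs in 1, 4, 0 and 9 cells. Maf, a factor of several effector and gamma delta lineages, was at 102 CPM in WT, 150.5 in YAPKO, 213 in TAZKO and 256 in DKO, lowest in WT, and above naive-like cells in each library (log2 fold change 1.69, adjusted p 2.69e-05, higher in 4 of 4 libraries). Of 12 lineage genes tested 6 were higher and 2, Cd4 and Cd8b1, lower than in naive-like cells, with a median of 0.43. Relative to NK and ILC1-like cells 6 were higher (3 without YAPKO) and 2 lower, 1 of them, Tbx21, lost without WT, YAPKO or TAZKO, with a median of 1.62.

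Cytotoxic genes were uneven between libraries. Of 13 tested genes of the list 11 were called higher than in naive-like cells and 0 lower, with a median of 1.64. Gzmb, the protease granzyme B (ENSMUSG00000015437), was at 1463 CPM (1359 to 1572) in WT, 1014 (948 to 1083) in YAPKO, 269.8 (240.2 to 302) in TAZKO and 278 (248 to 311) in DKO. WT and YAPKO are more than 3 times as high as TAZKO and DKO, and all 4 lie above the 15.3, 37.5, 61.7 and 48.9 CPM of naive-like cells (log2 fold change 3.50, adjusted p 2.44e-05, higher in 4 of 4 libraries). A Gzmb UMI was seen in 65.3, 48.5, 34.6 and 21.0% of members and, after thinning, in 41.6, 36.1, 18.1 and 12.5%, against 0.223, 0.440, 0.168 and 0.279% of B cells. Nkg7, a membrane protein of cytotoxic granules (ENSMUSG00000004612), was at 2003 CPM in WT, 1927 in YAPKO, 1109 in TAZKO and 1614 in DKO, lowest in TAZKO, against 550.5, 471, 363 and 436 in naive-like cells (log2 fold change 1.66, adjusted p 1.75e-07, higher in 4 of 4 libraries). Fasl, the death ligand for Fas, was at 118 CPM in WT, 156 in YAPKO, 90.5 in TAZKO and 121 in DKO (log2 fold change 3.03, adjusted p 1.35e-08, higher in 4 of 4 libraries). Gzma, granzyme A, came from few cells. It was at 1679 CPM (1568 to 1795) in WT, 895 (833 to 960.1) in YAPKO, 148 (126 to 172) in TAZKO and 133 (112 to 156) in DKO, from 854, 773, 165 and 145 UMIs in 15, 21, 13 and 12 cells, and in WT 3 cells held 77.5% of its UMIs. Its call against naive-like cells (log2 fold change 2.92, adjusted p 0.00566, higher in 4 of 4 libraries) is lost without YAPKO (adjusted p 0.120). Prf1, the pore protein perforin, was not called (log2 fold change 0.69, adjusted p 0.0860, higher in 4 of 4 libraries), at 60.9, 54.4, 32.3 and 56.9 CPM against 849, 570.3, 550.3 and 294 in NK and ILC1-like cells (log2 fold change -3.38, adjusted p 3.31e-08, lower in 4 of 4 libraries). Set beside NK and ILC1-like cells 7 of 13 genes were lower and 1, Gzmk, higher, with a median of -0.72. Gzmk, granzyme K, was at 60.9, 31.2, 32.3 and 116 CPM against 19.7, 17.02, 10.8 and 0 there (log2 fold change 1.73, adjusted p 0.0118, higher in 4 of 4 libraries), a call that is lost in repeats on 3 libraries (adjusted p 0.0554 without TAZKO and 0.0617 without DKO). Gzmb itself was level with these cells (log2 fold change -0.19, adjusted p 0.877, lower in 3 of 4 libraries).

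**Figure D4:**
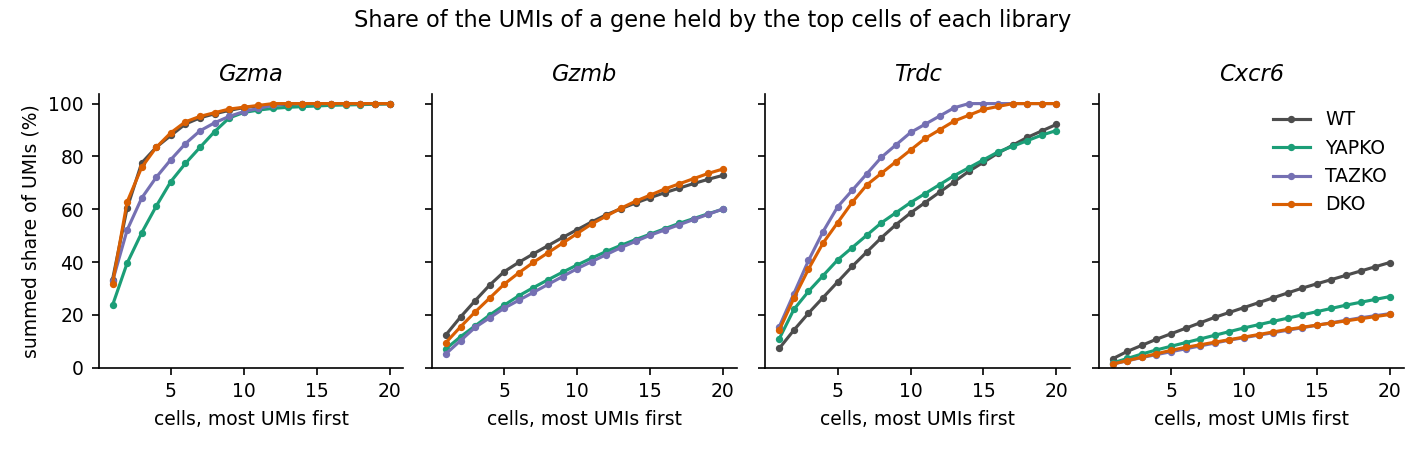
Running share of a gene's UMIs (%, vertical axis) over the 20 Cxcr6 T cells of each library with the most UMIs of that gene (horizontal axis, ranked), for Gzma, Gzmb, Trdc and Cxcr6. Gzma rises within a few cells, with 77.5% of the WT UMIs in 3 cells, while Gzmb and Cxcr6 are spread over many cells.

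Cytotoxic genes also differed by coreceptor, as values with no test. Of the Gzma UMIs 91.9, 60.4, 63.6 and 77.2% lay in Cd8-bearing members, and of the Gzmk UMIs 96.8, 77.8, 80.6 and 70.9%. Gzmb was spread more widely: Cd8-bearing members had 3136, 2394, 695 and 445 CPM, Trdc-bearing ones 2521, 2947, 397 and 1804 and those without any of the 3 markers 759.5, 487, 231 and 131. Within the Cd8-bearing cells and within the cells without markers, Gzmb was still higher in WT and YAPKO than in TAZKO and DKO. In the Trdc-bearing cells TAZKO was the lowest and DKO came closer to WT and YAPKO.

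The promoters of the called cytotoxic genes were searched for letters that are the core of known motifs, since these genes were called together. The windows are RefSeq sequence of build GRCm38.p6, from 250 bases before to 50 after each gene start, and 10 of the 11 genes called higher have one. On either strand, TGTGGT (the core bound by RUNX factors) is in 5 of the 10, namely Gzmb, Gzma, Nkg7, Serpinb9 and Cst7, and in 16.8% of all 32851 windows. TCACAC (T-box factors) is in 3, Gzmb, Nkg7 and Gzmk, and in 14.5% of all windows, and TTCCTGG (ETS factors) in 2, Fasl and Nkg7, and in 10.2%. Tnfsf10, Serpinb6b and Srgn hold none of the 3, and Ctsw has no window. Such a match is a description of letters and not a binding site. Runx3 was at 149, 141, 212 and 201 CPM in the members and the T-box genes Tbx21 and Eomes at 45.2, 44.0, 67.2 and 53.2 and 0, 9.26, 8.07 and 13.8. The windows of Gzmb (chr14:56262285-56262584, minus strand) and Nkg7 (chr7:43436888-43437187, plus strand) are printed 5' to 3' because they hold both the RUNX and the T-box letters, which are in capitals in either orientation. They were chosen after the values and matches were seen.
Gzmb: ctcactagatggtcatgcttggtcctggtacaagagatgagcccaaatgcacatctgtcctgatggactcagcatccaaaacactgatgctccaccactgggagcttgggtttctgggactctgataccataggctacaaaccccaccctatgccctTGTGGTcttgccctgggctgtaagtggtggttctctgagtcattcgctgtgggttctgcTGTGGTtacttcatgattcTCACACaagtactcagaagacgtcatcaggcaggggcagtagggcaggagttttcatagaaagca
Nkg7: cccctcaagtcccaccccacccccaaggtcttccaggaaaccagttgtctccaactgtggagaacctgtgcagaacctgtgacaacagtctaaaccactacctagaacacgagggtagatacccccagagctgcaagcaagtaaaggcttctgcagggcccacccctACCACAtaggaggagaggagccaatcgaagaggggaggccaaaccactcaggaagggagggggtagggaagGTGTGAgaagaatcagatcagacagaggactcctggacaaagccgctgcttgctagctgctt

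NK receptors lay between the other populations. Of 15 tested genes 11 were called higher than in naive-like T cells and 0 lower (median 1.66), and all 15 tested were lower than in NK and ILC1-like cells (median -2.35). Klrd1 encodes CD94, the partner of the NKG2 receptors. Klrd1 was at 515 CPM in WT, 519.7 in YAPKO, 228 in TAZKO and 253 in DKO, against 168, 168, 103 and 121 in naive-like cells (log2 fold change 1.19, adjusted p 1.51e-05, higher in 4 of 4 libraries) and 1204, 1441, 1106 and 984 in NK and ILC1-like cells (log2 fold change -1.65, adjusted p 6.79e-07, lower in 4 of 4 libraries). WT and YAPKO are near each other and TAZKO and DKO about 2-fold lower. Klrk1 encodes the activating receptor NKG2D, which binds stress ligands. Klrk1 was at 261 CPM in WT, 228 in YAPKO, 308 in TAZKO and 132 in DKO, highest in TAZKO and lowest in DKO (log2 fold change 2.48, adjusted p 4.01e-07, higher in 4 of 4 libraries, against naive-like cells). Klrc2 encodes the activating receptor NKG2C, and Klrc1 the inhibitory NKG2A. Klrc2 was at 51.1 CPM in WT, 75.2 in YAPKO, 149 in TAZKO and 21.1 in DKO and Klrc1 at 43.2, 44.0, 76.2 and 11.9 CPM, both highest in TAZKO and lowest in DKO (Klrc2 against naive-like cells: log2 fold change 2.57, adjusted p 8.81e-06, higher in 4 of 4 libraries). Klre1, which pairs with other receptors of this family, was at 183 CPM in WT, 278 in YAPKO, 141 in TAZKO and 95.4 in DKO, highest in YAPKO (log2 fold change 2.94, adjusted p 8.05e-08, higher in 4 of 4 libraries). The signalling adaptors Fcer1g and Tyrobp were low in TAZKO: Fcer1g was at 706 CPM (635 to 783) in WT, 624 (572 to 679) in YAPKO, 130.0 (109.7 to 153) in TAZKO and 468 (428 to 510.4) in DKO, and Tyrobp at 554, 461, 143 and 437 CPM. Macrophages and dendritic cells express these adaptors too, and their marker lists are given near the end. The Ly49 genes (Klra) are near copies, so their UMIs are uncertain. Klra4 had 16, 57, 1 and 2 UMIs, almost all from WT and YAPKO, and Klra8 none in the members.

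Of the cytokine and chemokine list 12 of 24 genes were tested against naive-like cells, with 8 called higher and 1, Tnfsf8, lower, and a median of 1.73. Ccl5, a chemokine of effector lymphocytes, was at 8697 CPM in WT, 5969 in YAPKO, 4366 in TAZKO and 7916 in DKO, against 859.8, 885, 862 and 893 CPM in naive-like cells (log2 fold change 2.73, adjusted p 1.75e-07, higher in 4 of 4 libraries). WT and DKO are highest and TAZKO lowest. T cells with UMIs of neither Cxcr6 nor the naive genes had 6270, 5427, 4059 and 6840 CPM of Ccl5. Those with Cxcr6 and exactly 1 naive gene UMI had 2633, 2741, 2546 and 2281 CPM. High Ccl5 is thus not particular to T cells with a Cxcr6 UMI. Cd8-bearing members held 73.6, 40.4, 48.7 and 79.7% of the members' Ccl5 UMIs. Xcl1, the chemokine that attracts Xcr1-bearing dendritic cells, was at 521 CPM in WT, 479 in YAPKO, 374 in TAZKO and 411 in DKO, with all 4 libraries above naive-like cells (25.5, 46.9, 123 and 49.9 CPM; log2 fold change 2.74, adjusted p 2.44e-06, higher in 4 of 4 libraries) and below NK and ILC1-like cells (796, 1524, 1543 and 1380.0; log2 fold change -1.43, adjusted p 0.00111, lower in 4 of 4 libraries). Il4 encodes the cytokine interleukin 4, which natural killer T cells hold as RNA at rest. Il4 was at 57.0 CPM (38.2 to 81.9) in WT, 56.7 (42.0 to 75.0) in YAPKO, 95.01 (77.8 to 115) in TAZKO and 47.7 (35.6 to 62.6) in DKO, and at 3.40, 0, 2.89 and 8.63 CPM in naive-like cells (log2 fold change 3.91, adjusted p 3.16e-06, higher in 4 of 4 libraries). TAZKO is the highest, and its interval overlaps that of WT but not those of YAPKO and DKO. The Il4 UMIs lay in 21, 32, 70 and 31 cells, and 82.8, 79.6, 76.4 and 100% of them in cells with no Cd4, Cd8 or Trdc UMI. Ifng, interferon gamma, was at 68.8 CPM (47.9 to 95.7) in WT, 12.7 (6.36 to 22.8) in YAPKO, 87.0 (70.5 to 106) in TAZKO and 45.9 (34.0 to 60.5) in DKO, and YAPKO was far below the other 3 libraries (log2 fold change 2.40, adjusted p 0.000219, higher in 4 of 4 libraries, against naive-like cells). Ccl4, a chemokine released on activation, was at 248 CPM (206 to 295) in WT, 179 (152 to 210.0) in YAPKO, 195 (170.3 to 223) in TAZKO and 624 (578 to 673) in DKO, highest in DKO, where Cd8-bearing members held 87.8% of the UMIs (log2 fold change 2.97, adjusted p 0.000158, higher in 4 of 4 libraries). Tnfsf14 encodes LIGHT, a member of the tumour necrosis factor family, and was at 35.4, 40.5, 69.0 and 24.8 CPM against 1.70, 2.35, 3.86 and 4.79 (log2 fold change 3.45, adjusted p 3.58e-06, higher in 4 of 4 libraries). Cd40lg, the ligand by which T cells help other cells, was at 74.7, 71.8, 141 and 79.8 CPM, highest in TAZKO (log2 fold change 0.87, adjusted p 0.00431, higher in 4 of 4 libraries), a call that is lost without TAZKO (adjusted p 0.0537). Interleukin 17 genes were near absent: Il17a had 0, 5, 0 and 0 UMIs and Il17f 0, 6, 0 and 1. Compared with NK and ILC1-like cells 3 genes, Cd40lg, Il4 and Ltb, were higher and 2, Xcl1 and Ccl5, lower, with a median of 0.25. The Ccl5 call (log2 fold change -0.68, adjusted p 0.0493, lower in 3 of 4 libraries) is lost in repeats on 3 libraries (adjusted p 0.147 without WT, 0.217 without YAPKO and 0.393 without TAZKO).

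Of 15 cytokine receptor genes tested, 7 were called higher and 3 lower than in naive-like cells, with a median of 0.67. Besides Il2rb these include Il2ra, the high-affinity chain for interleukin 2, at 31.4 CPM in WT, 71.8 in YAPKO, 63.6 in TAZKO and 47.7 in DKO (log2 fold change 1.80, adjusted p 0.000417, higher in 4 of 4 libraries), and Il12rb2, a chain of the interleukin 12 receptor, at 41.3, 46.3, 62.8 and 49.5 CPM against 3.40, 3.91, 3.86 and 14.4 (log2 fold change 2.74, adjusted p 6.80e-06, higher in 4 of 4 libraries). Il18rap, the accessory chain for interleukin 18, was at 45.2, 44.0, 52.0 and 40.4 CPM, higher than in naive-like cells (log2 fold change 1.30, adjusted p 0.00210, higher in 4 of 4 libraries) and lower than in NK and ILC1-like cells (log2 fold change -2.05, adjusted p 1.44e-05, lower in 4 of 4 libraries). Ifngr1, the receptor for interferon gamma, was at 468 CPM (410.3 to 531) in WT, 667 (613 to 723) in YAPKO, 247 (219 to 278) in TAZKO and 615 (569 to 663) in DKO. TAZKO was the lowest in the members, as it was in naive-like cells (301, 269.8, 152 and 300.1 CPM) and NK and ILC1-like cells (691, 836, 426 and 792). Il6ra, a receptor of naive T cells, was at 7.86, 11.6, 10.8 and 7.34 CPM against 119, 61.0, 141 and 63.3 (log2 fold change -3.45, adjusted p 2.97e-07, lower in 4 of 4 libraries). Some calls against naive-like cells are lost in repeats on 3 libraries. The higher call of Il18r1 is lost without WT, YAPKO or DKO (adjusted p 0.118, 0.344 and 0.177), and that of Il15ra without WT (0.0778). The lower call of Tgfbr2 is lost without WT, YAPKO or TAZKO (adjusted p 0.127, 0.0607 and 0.142). In the comparison with NK and ILC1-like cells 2 receptors were higher, Il2ra and Il21r, and 3 lower, with a median of 0.58. Without YAPKO both higher calls are lost (adjusted p 0.523 and 0.192), and Il10ra of the lower ones (0.116).

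Among chemokine receptors other than Cxcr6, 7 of 15 genes were tested, 4 were called higher and 2 lower (0 without YAPKO) than in naive-like cells, and the median was 1.02. Cxcr3, the receptor for Cxcl9 and Cxcl10, was at 261 CPM in WT, 274 in YAPKO, 180.2 in TAZKO and 169.7 in DKO, against 51.0, 43.8, 32.8 and 70.0 in naive-like cells (log2 fold change 1.97, adjusted p 1.62e-06, higher in 4 of 4 libraries) and 92.1, 134, 54.0 and 89.4 in NK and ILC1-like cells (log2 fold change 1.24, adjusted p 0.00174, higher in 4 of 4 libraries). WT and YAPKO are somewhat higher than TAZKO and DKO. Ccr2, a receptor of inflammatory chemokines, was at 161, 185, 194 and 158 CPM against 13.6, 36.0, 37.6 and 65.2 (log2 fold change 1.96, adjusted p 1.15e-05, higher in 4 of 4 libraries). Ccr9, known from T cells of the gut, was at 43.2 CPM in WT, 63.7 in YAPKO, 95.01 in TAZKO and 61.5 in DKO, highest in TAZKO (log2 fold change 1.02, adjusted p 0.00158, higher in 4 of 4 libraries, against naive-like cells). S1pr5, an exit receptor of NK cells, had 1, 2, 1 and 1 UMIs, against 14, 18, 16 and 2 in NK and ILC1-like cells (log2 fold change -5.11, adjusted p 6.42e-06, lower in 4 of 4 libraries). Cx3cr1, a receptor of circulating effector cells, had 0, 4, 13 and 13 UMIs and was not tested. Relative to NK and ILC1-like cells 2 of 7 genes were higher and 2 lower, with a median of -0.54.

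The ligand of Cxcr6 was looked for in the other liver cells of the same libraries. Cxcl16 was at 288, 319, 258 and 317 CPM in endothelial cells chosen by the 6 genes of the rule, 174, 240.5, 250.1 and 306 in Clec4f-bearing Kupffer cells, 20.5, 35.1, 19.6 and 52.6 in B cells and 3.93, 13.9, 2.69 and 19.3 in the members. It was thus high in both liver cell types in each library and low in lymphocytes. Il15, the ligand of Il2rb, was at 29.2, 32.4, 36.0 and 22.7 CPM in Kupffer cells and 11.9, 11.0, 8.504 and 12.5 in endothelial cells, and had 0, 2, 2 and 4 UMIs in the members. Of the list of 12 ligands 6 were tested in the members, 2 (Cxcl10 and Ccl5) were called higher than in naive-like cells (median 0.59), and 1, Ccl5, lower than in NK and ILC1-like cells (median -0.21). Cxcl10 had 131, 8, 101 and 14 UMIs in 2, 3, 5 and 3 members, of which 1 cell held 123 in WT and 54 in TAZKO, and its call (log2 fold change 4.76, adjusted p 0.0208, higher in 4 of 4 libraries) is lost in repeats on 3 libraries (adjusted p 0.0635 without WT, 0.0742 without YAPKO and 0.148 without TAZKO).

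Of 14 checkpoint and costimulatory receptors tested, 7 were called higher and 0 lower than in naive-like cells, with a median of 0.94. Cd160, a receptor of resident and cytotoxic cells, was at 391 CPM in WT, 388 in YAPKO, 187 in TAZKO and 263 in DKO, lowest in TAZKO, against 11.9, 32.8, 50.1 and 37.4 in naive-like cells (log2 fold change 2.94, adjusted p 2.33e-06, higher in 4 of 4 libraries). Cd226, an activating adhesion receptor, was at 362, 362, 411 and 271 CPM against 76.5, 63.3, 95.4 and 109 (log2 fold change 1.85, adjusted p 2.24e-06, higher in 4 of 4 libraries). Tnfrsf18 encodes GITR, a costimulatory receptor, and was at 195, 298, 115 and 218 CPM, highest in YAPKO (log2 fold change 1.22, adjusted p 1.56e-05, higher in 4 of 4 libraries). Pdcd1, the inhibitory receptor PD-1, was at 55.0 CPM (36.6 to 79.5) in WT, 41.7 (29.2 to 57.7) in YAPKO, 13.4 (7.53 to 22.2) in TAZKO and 81.7 (65.6 to 100.5) in DKO, against 3.40, 17.98, 0.964 and 8.63 in naive-like cells (log2 fold change 2.32, adjusted p 0.000181, higher in 4 of 4 libraries). It is lowest in TAZKO and highest in DKO, and these intervals do not overlap. Lag3, a further inhibitory receptor, was at 41.3, 16.2, 8.96 and 64.2 CPM (log2 fold change 3.44, adjusted p 4.10e-05, higher in 4 of 4 libraries), with 90.5, 28.6, 70.0 and 87.1% of its UMIs in Cd8-bearing members. Icos, a costimulatory receptor, was at 98.3, 112, 95.9 and 147 CPM and above both populations (log2 fold change 0.88, adjusted p 0.00140 and 3.34, 4.90e-06, both higher in 4 of 4 libraries). Set beside NK and ILC1-like cells 6 of 14 receptors were higher (2 without YAPKO, 3 without TAZKO) and 0 lower, with a median of 0.38.

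Of 18 transcription factors of effector T cells tested, 7 were called higher and 3 lower (1 without TAZKO) than in naive-like cells, with a median of 0.47. Id2 encodes an inhibitor of E proteins that effector and innate-like lymphocytes need. Id2 was at 1400.0 CPM in WT, 1331 in YAPKO, 1673 in TAZKO and 1170.0 in DKO, against 168, 131, 331 and 429.6 CPM in naive-like cells (log2 fold change 2.27, adjusted p 3.48e-06, higher in 4 of 4 libraries) and 1204, 1223, 1111 and 1124 in NK and ILC1-like cells (log2 fold change 0.30, adjusted p 0.575, higher in 4 of 4 libraries). The members are thus close to NK and ILC1-like cells for Id2 and apart from naive-like cells in each library. Tbx21 encodes T-bet, the factor of type 1 effector cells. Tbx21 was at 45.2, 44.0, 67.2 and 53.2 CPM against 5.10, 7.04, 11.6 and 13.4 in naive-like cells (log2 fold change 2.27, adjusted p 2.66e-06, higher in 4 of 4 libraries). Eomes, its relative in circulating NK and memory cells, had 0, 8, 9 and 15 UMIs, against 184, 93.6, 254 and 63.9 CPM in NK and ILC1-like cells (log2 fold change -4.02, adjusted p 7.24e-06, lower in 4 of 4 libraries). Zeb2, a factor of terminal effector cells, was lower than there too, at 43.2, 15.1, 16.1 and 28.4 against 204, 123, 442 and 89.4 CPM (log2 fold change -3.07, adjusted p 0.000115, lower in 4 of 4 libraries). Hopx, a cofactor in effector T cells, was at 377, 372, 321 and 248 CPM and higher than in naive-like cells (log2 fold change 1.39, adjusted p 6.52e-06, higher in 4 of 4 libraries), as were Rora (log2 fold change 1.20, adjusted p 0.000395, higher in 4 of 4 libraries) and Stat4, which carries the interleukin 12 signal (log2 fold change 0.70, adjusted p 0.00216, higher in 4 of 4 libraries). Bcl11b, which keeps T cell identity, was far above NK and ILC1-like cells, at 228, 174, 293 and 277 against 13.2, 21.3, 16.2 and 38.3 CPM (log2 fold change 3.53, adjusted p 4.53e-08, higher in 4 of 4 libraries). Compared with NK and ILC1-like cells 2 factors were higher (1, without Hopx, in repeats without WT or YAPKO) and 5 lower, with a median of 0.08.

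The remaining lists of the members' own genes cover stress, interferon, division and the Hippo pathway. Of 19 immediate early and stress genes tested 2, Dusp2 and Dusp1, were higher and 1, Zfp36, lower than in naive-like cells (median -0.14), and 0 higher and 1, Btg2, lower than in NK and ILC1-like cells (median 0.04). The Dusp1 and Zfp36 calls are lost in repeats on 3 libraries (adjusted p 0.0804 without YAPKO for Dusp1 and 0.0907 without WT, 0.177 without YAPKO and 0.0916 without TAZKO for Zfp36), as is that of Btg2 (0.0813 without TAZKO). Dusp2, a phosphatase induced by receptor signals, was at 246 CPM in WT, 446 in YAPKO, 173 in TAZKO and 208 in DKO, highest in YAPKO (log2 fold change 1.70, adjusted p 2.22e-07, higher in 4 of 4 libraries). Hspa1b, a heat shock gene that responds to cell isolation, was at 399, 4.63, 100.4 and 71.6 CPM, and a UMI of it was in 57.4, 2.37, 21.8 and 11.4% of members and 57.5, 3.08, 27.1 and 12.8% of B cells, so WT is high and YAPKO low in both. Of 22 interferon response genes 9 were higher and 0 lower than in naive-like cells (median 0.50), and 10 higher and 0 lower than in NK and ILC1-like cells (median 0.66). Without YAPKO 5 and 4 of these keep their call, and without TAZKO 4 and 5. Ly6a, the surface protein Sca-1, was among both, at 584, 671, 599 and 464 CPM against 345, 364, 203 and 185 in naive-like (log2 fold change 0.94, adjusted p 5.69e-05, higher in 4 of 4 libraries) and 13.2, 23.4, 10.8 and 12.8 in NK and ILC1-like cells (log2 fold change 5.24, adjusted p 8.31e-10, higher in 4 of 4 libraries). Isg15, a ubiquitin-like modifier, was at 200.5 CPM in WT, 144 in YAPKO, 107 in TAZKO and 67.9 in DKO, falling from WT to DKO (log2 fold change 1.12, adjusted p 0.000452, higher in 4 of 4 libraries, against naive-like cells). Of 13 cell division genes 0 were higher and 3, Rrm2, Stmn1 and Tubb5, lower than in naive-like cells (median -0.44), Rrm2 and Tubb5 not in each repeat on 3 libraries (adjusted p 0.0717 without WT and 0.0909 without DKO and 0.124 without WT and 0.0828 without TAZKO). A single naive-like cell held 66 of 525, 348 of 1824, 660 of 2507 and 346 of 2353 UMIs of the list. A single member held 52 of 420, 303 of 1489, 286 of 2263 and 284 of 1821. Both sums thus lean on few cells. In the comparison with NK and ILC1-like cells edgeR called 0 of 13 (median 0.00), among 1328 genes of all tested with an unadjusted p under 0.05 and 455 called by DESeq2. Of 8 Hippo pathway genes with enough UMIs 1, the kinase gene Stk4, was lower than in naive-like cells (log2 fold change -0.37, adjusted p 0.0435, lower in 4 of 4 libraries; median 0.03) and edgeR called 0 against NK and ILC1-like cells (median -0.03). The Stk4 call is lost in repeats on 3 libraries (adjusted p 0.100 without WT, 0.267 without YAPKO and 0.100 without TAZKO).

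Genes named by the size of their change add the following. Beyond those above, Socs2, an inhibitor of cytokine signals, was at 132, 146, 175 and 78.9 CPM against 11.9, 8.60, 11.6 and 5.75 in naive-like cells (log2 fold change 3.64, adjusted p 9.93e-08, higher in 4 of 4 libraries). Serpina3f, a serine protease inhibitor, was at 27.5, 129.6, 34.1 and 42.2 CPM, highest in YAPKO (log2 fold change 3.29, adjusted p 9.06e-06, higher in 4 of 4 libraries). On the lower side, Actn1, which crosslinks actin, was at 13.8, 17.4, 11.7 and 17.4 CPM against 139, 115, 210.1 and 131 (log2 fold change -3.46, adjusted p 1.53e-08, lower in 4 of 4 libraries), and Nsg2 at 9.83, 3.47, 0 and 0 against 105, 77.4, 82.9 and 63.3 (log2 fold change -5.20, adjusted p 2.97e-07, lower in 4 of 4 libraries). Pdlim4, St8sia6, Tdrp, Aff3 and Treml2 had log2 fold changes of -5.59, -5.51, -4.48, -3.58 and -3.48, with adjusted p of 3.23e-06, 4.08e-06, 2.33e-06, 2.23e-05 and 1.55e-05, all lower in 4 of 4 libraries. Relative to NK and ILC1-like cells the largest increases were T cell genes with 0 UMIs there, so only a lower bound can be given, against 3 UMIs over the NK and ILC1-like cells of all libraries. Cd6, an adhesion receptor of T cells, was at least 28.5-fold higher, Cd5, a brake on receptor signals, at least 29.8-fold, Themis, a signalling protein of the receptor, at least 27.4-fold and Cd40lg at least 28.4-fold. Cd8b1, Cd8a, Izumo1r, Cd4, Sit1 and Slamf1 were at least 52.8, 43.8, 21.2, 14.1, 11.6 and 8.99-fold higher. The largest decreases were NK and granule genes: Klrb1a at 11.8, 24.3, 0 and 2.75 CPM against 322, 383, 167 and 268 (log2 fold change -4.92, adjusted p 2.14e-07, lower in 4 of 4 libraries), the mast cell protease Cma1 at 0, 4.63, 0 and 0 against 342, 172, 135 and 25.6 (log2 fold change -6.67, adjusted p 6.80e-07, lower in 4 of 4 libraries), granzyme C, Gzmc, at 1.97, 5.79, 7.17 and 2.75 against 72.4, 126, 199.6 and 115 (log2 fold change -4.70, adjusted p 2.01e-07, lower in 4 of 4 libraries) and Gzma (log2 fold change -3.51, adjusted p 0.000749, lower in 4 of 4 libraries). Eomes, Car2, Klra4, Klra13-ps and Klrb1f were also among the largest decreases, with log2 fold changes of -4.02, -3.89, -4.81, -3.39 and -3.82, adjusted p of 7.24e-06, 0.000186, 6.42e-06, 2.04e-06 and 3.54e-07, all lower in 4 of 4 libraries.

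Between libraries a gene was counted as changed when its CPM in the members differed at least 2-fold from WT, among genes with at least 50 UMIs in both libraries together and with 1 added to each count. The printed log2 ratios are those of the CPM itself. YAPKO had 141 of 3690 genes past 2-fold (3.82%), 65 higher (1.76%) and 76 lower (2.06%). TAZKO had 432 of 4417 (9.78%), 315 higher (7.13%) and 117 lower (2.65%). DKO had 242 of 4289 (5.64%), 166 higher (3.87%) and 76 lower (1.77%). With the limits read as UMIs YAPKO had 24 higher and 49 lower, TAZKO 245 and 98 and DKO 94 and 81. With the top cell of each gene left out they had 56 and 52, 382 and 80, and 188 and 48. With scaling by TMM they had 59 and 76, 256 and 161, and 141 and 92. The medians over all counted genes were 0.06, 0.07 and 0.07. The 3 comparisons share the WT library, so an unusual value in WT enters all 3.

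Receptor and granule genes come first. Trdc had a log2 ratio to WT of -2.80 (-3.23 to -2.39) in TAZKO and -2.26 (-2.63 to -1.89) in DKO, against -0.55 (-0.83 to -0.27) in YAPKO. For Trgc1 it was -1.35 (-1.77 to -0.93) in DKO, 0.05 (-0.30 to 0.41) in YAPKO and a fall barely past 2-fold in TAZKO, and Trgc4 had -1.61 (-2.05 to -1.17) in TAZKO and -1.75 (-2.21 to -1.30) in DKO. The delta and gamma genes thus fell together in the same pair of libraries. Of 15 receptor complex genes 3 were lower in TAZKO and in DKO and 0 higher (medians -0.24 and -0.09), and 0 changed in YAPKO (0.12). Gzmb had -2.44 (-2.64 to -2.24) in TAZKO and -2.40 (-2.59 to -2.20) in DKO, and Gzma, carried by few cells, -3.50 (-3.75 to -3.26) and -3.66 (-3.92 to -3.40). In NK and ILC1-like cells Gzma was at 11497, 7352, 6453 and 2683 CPM, also highest in WT and lowest in DKO. Cst7, an inhibitor of granule proteases, had -1.57 (-2.10 to -1.04) in TAZKO. Of 13 cytotoxic genes 4 were lower in TAZKO, 2 in DKO and 0 in YAPKO, with 0 higher in any (medians -0.85, -0.12 and -0.06). Among the lineage genes 4 were higher and 2 lower in TAZKO, 3 and 1 in DKO, and 1 and 1 in YAPKO (medians 0.74, 0.54 and 0.05). Cd4 had 1.93 (0.87 to 3.20) in TAZKO and 1.90 (0.84 to 3.17) in DKO, Cd8a -1.41 (-1.84 to -0.98) in YAPKO and -1.56 (-1.98 to -1.15) in TAZKO, Maf 1.06 (0.62 to 1.52) and 1.32 (0.89 to 1.78), and Zbtb16 1.12 (0.24 to 2.11) in TAZKO. Klrb1c had 3.87 (2.48 to 5.76) in TAZKO, from 128 UMIs against 4.

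**Figure D5:**
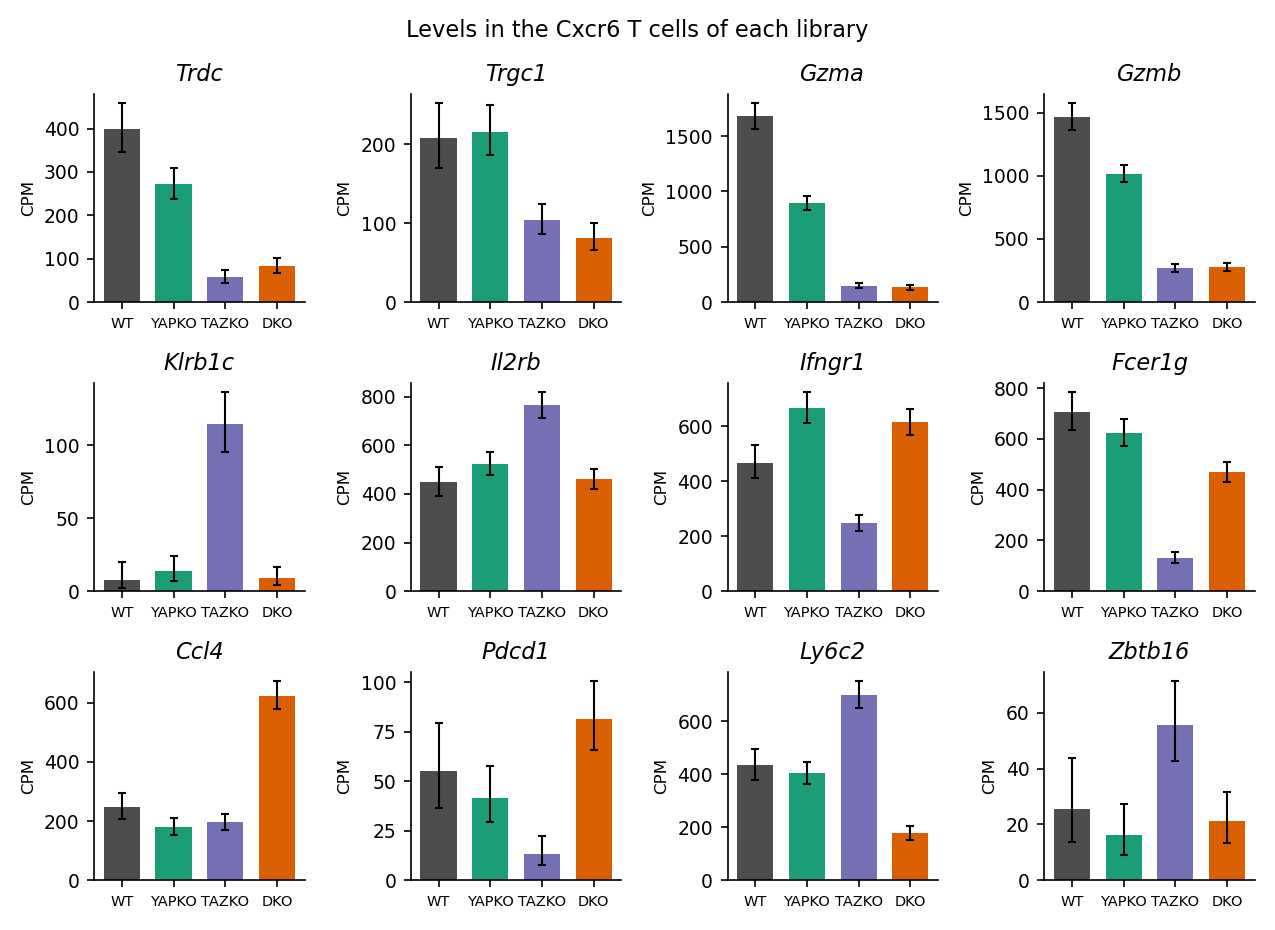
Level (CPM, vertical axis from 0) of 12 genes in the Cxcr6 T cells of each library, with exact 95% Poisson intervals. Trdc, Trgc1, Gzma and Gzmb are high in WT and YAPKO, Klrb1c, Zbtb16 and Il2rb highest in TAZKO, and Ccl4 and Pdcd1 highest in DKO.

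NK receptors gave 3 genes lower and 1 higher in TAZKO, 2 lower in DKO and 1 higher in YAPKO (medians -0.01, -0.96 and 0.01). Fcer1g had -2.44 (-2.73 to -2.16) and Klrc2 1.54 (0.94 to 2.20) in TAZKO. Klrd1 had -1.18 (-1.43 to -0.92) in TAZKO and -1.02 (-1.27 to -0.77) in DKO. Receptors of the same family thus moved in both directions in TAZKO. Of the residency list 3 genes were higher and 1 lower in TAZKO, 2 higher in DKO and 2 higher in YAPKO (medians 0.38, 0.42 and 0.10). Bhlhe40 was higher in all 3, at 1.24 (0.34 to 2.24), 1.52 (0.67 to 2.49) and 1.52 (0.67 to 2.49). Of the recirculation list 2 genes, Igfbp4 and Tcf7, were higher in TAZKO, and in DKO Il7r was higher, at 1.14 (0.89 to 1.40), and Ly6c2 lower, at -1.30 (-1.59 to -1.02), with list medians of 0.50 and 0.34. In YAPKO 0 of its 10 counted genes were past 2-fold (0.23).

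Signalling genes follow. Of cytokine and chemokine genes with 50 UMIs 0 changed in YAPKO and TAZKO and 1, Ccl4 with 1.33 (1.06 to 1.62), in DKO (medians -0.07, 0.31 and -0.09). Below 50 UMIs and so not counted, Ifng had -2.43 (-3.56 to -1.42) in YAPKO and Ccl3 -2.76 (-3.83 to -1.79) in TAZKO. Cytokine receptors gave 1 higher, Il2ra, in YAPKO, 0 in TAZKO and 1 higher, Il7r, in DKO (0.34, 0.39 and 0.31). Il2rb itself had 0.77 (0.56 to 0.99) in TAZKO, short of 2-fold. Among chemokine receptors Cxcr4, which binds Cxcl12, was higher in YAPKO at 1.65 (0.61 to 2.86) and in DKO at 1.92 (0.92 to 3.11), Ccr9 in TAZKO and Gpr183 in DKO (medians 0.39, 0.25 and 0.32). Checkpoint receptors gave 0 changes in YAPKO, 1 lower, Cd160, in TAZKO and 2 higher in DKO, Ctla4 with 3.27 (1.66 to 5.59) and Tnfrsf4 with 2.13 (1.19 to 3.24), and medians of 0.09, -0.08 and 0.53. Not counted for the same reason, Pdcd1 had -2.03 (-3.04 to -1.08) and Lag3 -2.20 (-3.45 to -1.05) in TAZKO. Ctla4 and Tnfrsf4 are genes of regulatory and activated T cells, and they came from 29 and 29 of the DKO members. Transcription factors gave 0 in YAPKO, 4 higher in TAZKO, among them Runx1 with 1.55 (0.91 to 2.25), and 1 higher in DKO, Irf8, which reverses when the limits are read as UMIs or cells with markers of other types are left out (-0.03, 0.35 and 0.35).

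Stress, interferon and division genes changed as follows. Of the stress list 1 gene was higher and 2 lower in YAPKO, 1 and 2 in TAZKO, and 2 and 3 in DKO (medians -0.16, -0.18 and 0.09), with Hspa1a and Hspa1b lower in each, Hspa1b at -6.43 (-8.32 to -5.05) in YAPKO. Junb, a part of the AP-1 factor, was higher in YAPKO at 1.18 (0.74 to 1.65) and DKO at 1.63 (1.21 to 2.07). Interferon genes gave 1 lower in YAPKO, 1 higher, Ifi27l2a, in TAZKO and 2 lower in DKO (medians -0.01, 0.01 and -0.18). In DKO these were Isg15, at -1.56 (-2.01 to -1.12), which falls short of 2-fold when cells with Kupffer, neutrophil or B cell markers are left out, and Iigp1, which reverses when its top cell is left out. Division genes gave 5 of 8 higher in YAPKO and 6 of 8 in TAZKO and in DKO, with 0 lower (medians 2.21, 2.67 and 2.18). Mki67, a protein of dividing cells, had 3, 50, 106 and 66 UMIs in 3, 8, 15 and 14 members. The UMIs thus came from few cells in each library. With the limits read as 500 to 6000 UMIs, which drops the largest cells, Ube2c and Birc5 reversed in YAPKO and DKO, Ube2c in TAZKO and Stmn1 in DKO, and Mki67 fell short of 2-fold in YAPKO and DKO. Of 3, 4 and 3 Hippo pathway genes with enough UMIs 0 changed in YAPKO, TAZKO and DKO (medians -0.37, 0.53 and 0.16). Of the 4 counted ligand genes 1, Cxcl10, was lower in each (-0.29, -0.27 and -0.12), and Cxcl10 reverses in each when cells with markers of other types are left out.

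Many of the largest ratios to WT are markers of other cells or of dividing cells. The lowest in YAPKO were Dcn, Hspa1b, Hspa1a, Mup11, Spp1, Ecm1, Colec11 and Cxcl10, and in TAZKO Spp1, Mup11, Ifitm1, Dcn, Colec11, Ecm1, Igfbp7 and Gzma. In WT a single cell for each gene held 262 of 265 Dcn UMIs, 204 of 210 of Spp1, 67 of 68 of Ecm1, 58 of 62 of Colec11, 123 of 131 of Cxcl10 and 54 of 57 of Ifitm1. These ratios thus rest on 1 cell per gene, and in YAPKO those of Dcn, Spp1 and Cxcl10 reverse when cells are left out for size or markers. The lowest in DKO also included Trim12a and Wls. Wls, which carries Wnt proteins to the cell surface, had 297 UMIs in WT, with at most 12 in 1 cell, against 31 in DKO, a log2 ratio of -4.36 (-4.94 to -3.82). Trim12a had 77 UMIs in WT, with at most 6 in 1 cell, against 4, or -5.37 (-7.28 to -3.95). Both are spread over cells, unlike the genes held by 1 cell. The labels do not say whether the 4 mice share a strain background, so for these genes a strain difference cannot be told apart from one of genotype. Mup11, Mup17 and Mup7, the others in DKO with Spp1, Colec11 and Cxcl10, are hepatocyte genes that are near copies of each other. The highest in YAPKO were H1f5, Cenpf, Birc5, Hist1h2ap, Ube2c, Il1b, H2ac8 and Top2a, in TAZKO H1f5, Hist1h2ap, Pclaf, Mup9, Cyp2c29, Ube2c, Cyp2c54 and Mtmr9, and in DKO Cenpf, Ube2c, Mpeg1, Slpi, Pclaf, Cib3, Birc5 and Nnmt. A single cell held 198 of 250 H1f5 and 55 of 70 Il1b UMIs in YAPKO and 98 of 103 Slpi UMIs in DKO. Mpeg1 and Slpi in DKO and H1f5, Hist1h2ap, H2ac8 and Il1b in YAPKO reverse when cells are left out for size or markers. Mtmr9, a phosphatase-like protein, had 208 UMIs in TAZKO, with at most 6 in 1 cell, against 6 in WT, or 3.98 (2.84 to 5.45), with the same limit.

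Markers of other liver cells were summed to show what else the members' barcodes hold, and their part in the differences was not tested. Hepatocyte genes, with all 19 of 19 present led by Mup20 in WT and YAPKO, Alb in TAZKO and Apoa2 in DKO, stood at 19013, 3933, 16967 and 15504 CPM, lowest in YAPKO. Of 18 counted genes 18 were lower in YAPKO (median -2.08), of 19 in TAZKO 4 were higher and 1 lower (-0.12), and in DKO 2 and 5 (-0.03). Naive-like cells had 17902, 6408, 17478 and 26589 CPM and NK and ILC1-like cells 56858, 5803, 19531 and 7282. Of the naive-like UMIs 1 cell held 9162 of 27727 in DKO and 1 cell 1909 of 8195 in YAPKO. In the DKO members the top cell held 2531 of 16897. In WT the value of the NK and ILC1-like cells is above the members, but 1 cell held 5310 of its 8640 UMIs. In DKO it is below them. Of the 19 genes edgeR called 0 against naive-like cells (median -0.60) or against NK and ILC1-like cells (-0.41). At an unadjusted p under 0.05 it had 1902 and 1328 of all genes, and DESeq2 called 852 and 455. Hepatocyte RNA is thus in the barcodes of each of the 3 populations, unevenly between libraries.

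Dendritic genes were at 1292, 2362, 579 and 3971 CPM, led by Cd74 except in TAZKO, where Bst2 led. Their sum is highest in DKO and lowest in TAZKO. The top cell held 478 of 657 UMIs in WT, 960 of 2041 in YAPKO, 231 of 646 in TAZKO and 729 of 4328 in DKO. The order of WT and TAZKO thus depends on single cells. Against WT 3 of 7 were higher in YAPKO, 5 of 7 in DKO, and 1 of 6 higher and 4 lower in TAZKO (medians 0.93, 1.84 and -1.60). H2-Aa, of the class II molecules of antigen-presenting cells, had 75, 307, 60 and 728 UMIs in 3, 10, 8 and 25 members, so these UMIs sit in few cells. Kupffer and macrophage genes were at 173, 239.6, 152 and 616 CPM, led by Ctss and in DKO by Lyz2, with 1 of 2 counted genes higher in YAPKO, 0 of 1 in TAZKO and 3 of 3 in DKO (medians 0.85, -0.09 and 1.60). Of that list Marco, Timd4 and Adgre1 had 0, 1, 1 and 1, 0, 0, 1 and 1 and 1, 1, 2 and 3 UMIs. Against naive-like cells 1 of 6 Kupffer and macrophage genes was lower, Ctss (adjusted p 0.0120, log2 fold change -1.06, lower in 3 of 4 libraries, and lost at 0.0629 without WT, 0.201 without YAPKO and 0.0890 without TAZKO), with a median of -0.88, and 1 of 7 dendritic genes was higher and 1, H2-Aa, lower (median -1.24; lost at 0.0855 without WT, 0.184 without YAPKO and 0.223 without TAZKO). Set beside NK and ILC1-like cells these lists gave 0 and 0 of 6 (0.53) and 2 higher and 0 lower of 7 (-0.03), Ccr9 and Bst2, which T cells express as well. The Bst2 call is lost at adjusted p 0.137 without YAPKO and 0.108 without TAZKO.

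Stellate genes were at 863, 11.6, 10.8 and 64.2 CPM and biliary genes at 466, 33.6, 6.28 and 32.1, high in WT through the single cells above and led in WT by Dcn and Spp1. The 3 counted stellate genes and the 1 counted biliary gene, Spp1, were lower than WT in each of the other libraries (medians -4.87, -5.53 and -3.48 for stellate and -4.90, -8.85 and -6.01 for biliary genes). No stellate gene had enough UMIs for the tests between populations, and of 2 biliary genes 0 were called in either (medians 0.26 and 1.46). Neutrophil genes were at 118, 535, 106 and 40.4 CPM, high in YAPKO through S100a9, where 2 of 3 were higher than WT and 1 lower, while 0 of 1 changed in TAZKO and 1 of 1 was lower in DKO (medians 4.86, 0.32 and -1.62). In YAPKO 1 cell held 205 of 243 S100a9 UMIs. In both population tests 1 of 3 neutrophil genes, Mmp9, was higher (medians -0.54 and -0.67), against NK and ILC1-like cells not in each repeat on 3 libraries (adjusted p 0.0560 without TAZKO). Mmp9, a matrix protease, was at 82.6, 38.2, 105 and 26.6 CPM in 27, 25, 70 and 24 members, against 3.40, 3.91, 10.6 and 6.71 in naive-like cells (log2 fold change 2.98, adjusted p 3.48e-06, higher in 4 of 4 libraries), and so is not limited to cells with S100a8 or S100a9, which had 0 UMIs in TAZKO.

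Endothelial genes outside the rule were at 218, 134, 120.1 and 159.7 CPM, led by Ehd3, with 1 of 1 counted gene lower in YAPKO, 0 of 1 changed in TAZKO and 0 of 2 in DKO (medians -1.26, -0.26 and -0.03). Of 3 tested genes 0 were called against naive-like cells and 1, Ehd3, higher than in NK and ILC1-like cells (log2 fold change 1.68, adjusted p 0.00433, higher in 4 of 4 libraries, lost at adjusted p 0.0520 without TAZKO; medians 0.33 and 1.68). B and plasma cell genes were at 144, 181, 165 and 144 CPM, led by Ighm, with 59, 132, 170 and 131 UMIs, while Ms4a1, Ebf1, Pax5 and Fcmr had 0 UMIs in all libraries. Ighm was lower than in naive-like cells (log2 fold change -0.55, adjusted p 0.00630, lower in 4 of 4 libraries) and not called against NK and ILC1-like cells (log2 fold change 0.06, adjusted p 0.921, higher in 3 of 4 libraries), and it changed in no library (log2 ratio with 1 added 0.38, 0.38 and 0.04). NK and ILC1 genes were at 3497, 2706, 1026 and 1410.0 CPM, led by Gzma in WT and YAPKO. Of 8 tested 4 were higher and 1 lower than in naive-like cells and 8 lower than in NK and ILC1-like cells (medians 0.98 and -3.27), with 1 of 6 higher in YAPKO, 3 of 5 lower in TAZKO and 1 of 5 lower in DKO against WT (medians -0.12, -1.95 and -0.59). Erythroid and platelet genes were at 5.90, 0, 16.1 and 2.75 CPM, with no gene at enough UMIs for a comparison.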

How the data were processed

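The values are counts of UMIs per gene and barcode, as deposited by the authors, who made them with Cell Ranger (6.0.1 in the submitters' notes, 4.0.0 in the matrix headers) on mm10 and deposited filtered barcodes. No ambient RNA correction and no doublet caller were run. Here Python 3.11.15 (numpy 2.4.6, scipy 1.17.1, pandas 2.3.3, matplotlib 3.10.9) and R 4.3.3 were used. Populations were tested with edgeR 4.0.16 (quasi-likelihood, TMM, filterByExpr) on UMIs summed per library and population, with library as a block and Benjamini-Hochberg adjustment over all genes tested. Numbers of libraries with a direction compare CPM without TMM scaling. B cells had at least 2 Cd79a UMIs and 0 of Cd3e and Cd3d.

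The gates of the other populations, the 26 gene lists and the rule for naming genes were written with earlier results of these data known. Named genes are the 10 highest and 10 lowest log2 fold changes per test (adjusted p under 0.05, the same direction in 4 libraries, at least 100 UMIs) and the 8 highest and 8 lowest ratios per library (at least 50 UMIs). They leave out gate, mitochondrial, ribosomal and unnamed genes and the hepatocyte, Kupffer, endothelial, neutrophil, B cell and erythroid lists. Any gene of a list may be named as well. Trgv1, Trgv2, Trgv4, Trgv6 and Trdv4 were added after values were seen.

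Alternatives were the limits of 500 to 6000 read as UMIs, 20% mitochondrial UMIs, 2 Cxcr6 UMIs, a CD3 sum of 3, cells with marker UMIs left out (2 or more UMIs over the Kupffer, neutrophil and B cell lists without Igkc), thinning to 1000 UMIs, DESeq2 1.42.0, no gene filter, no library block, 1 library left out, 3 other scalings and a minimum of 100 UMIs. Chosen after seeing the data were leaving out cells with 2 or more UMIs over the dendritic (without Bst2 and Ccr9), stellate and biliary lists, and leaving out the top cell of each gene.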

Additional observations from a re-analysis of the deposited data

How the results depend on the processing

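Each alternative was compared with the result in the text. Of the main results 75 values stayed within the limits set for a change and 32 moved. For single genes 3531 values stayed, 312 were weaker, 173 moved and 30 reversed. The cause was not tested for any of them. The contrast of Cd8-bearing with Cd4-bearing members and its alternatives were not run, because WT has 5 Cd4-bearing cells, under the 10 required.

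Leaving out cells with marker UMIs of Kupffer cells, neutrophils or B cells leaves 52, 86, 142 and 180 members. The cells it removes are not shown to be doublets. With it 669 of 3981 genes tested were called against naive-like cells instead of 1083 of 7493, so fewer genes were tested as well as called. Without the library block 449 were called, and 238 instead of 540 against NK and ILC1-like cells. With 1 library left out the counts ranged from 684 to 1022 and from 275 to 559. DESeq2 called 852 and 455, of which 846 and 443 were also called by edgeR.

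After thinning to 1000 UMIs, Cxcr6 T cells were 25.3% of T cells in YAPKO, 24.4% in TAZKO and 25.1% in DKO. With at least 2 Cxcr6 UMIs they were 24.3%, 23.4% and 19.7% (28.5% in WT, whose interval lies above that of DKO), and with cells with marker UMIs left out 41.75% in YAPKO, then the highest of the 4 and not the lowest. The thinned subsets changed as follows. Cells with Cd4 and Cd8 were 0.368% in DKO and 0% in YAPKO. Cd4-bearing cells were 2.96% in YAPKO, 6.17% in TAZKO and 7.72% in DKO. In YAPKO Cd8-bearing cells were 7.69% and Trdc-bearing cells 10.1%. Cells with none were 64.4% in WT, 81.1% in YAPKO, 80.2% in TAZKO and 66.9% in DKO.

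The genes past 2-fold in YAPKO were 73 (2.74% of those counted) with the limits read as UMIs and 70 (3.8%) with cells with marker UMIs left out. They were 93 (3.06%) with dendritic, stellate or biliary cells left out (chosen later) and 72 (3.63%) with at least 100 UMIs, against 141 (3.82%). In TAZKO they were 188 (7.81%) with at least 100 UMIs, against 432 (9.78%). In DKO they were 150 (6.12%) with cells with marker UMIs left out and 91 (3.89%) with at least 100 UMIs, against 242 (5.64%). Fewer genes were counted in each of these settings.

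These genes reversed against WT (log2 ratios). With the limits read as UMIs, in YAPKO: Birc5 -0.77, Dcn 0.23, H1f5 -0.77, H2ac8 -0.99, Hist1h2ap -0.77, Il1b -2.35, Spp1 0.0104 and Ube2c -1.77. In TAZKO Ube2c was -0.00646, and in DKO Birc5 was -0.14, Irf8 -0.14, Slpi -1.73, Stmn1 -0.40 and Ube2c -1.14. With cells with marker UMIs left out, YAPKO had Cxcl10 at 0.27, Il1b at -2.31 and Spp1 at 1.44, and TAZKO had Cxcl10 at 1.95. DKO then had Birc5 at -0.30, Cxcl10 at 2.51, Irf8 at -0.54, Mpeg1 at -1.30, Stmn1 at -0.0481 and Ube2c at -0.30. With dendritic, stellate or biliary cells left out, Dcn was 0.60 in YAPKO, Cxcl10 1.08 in TAZKO, and Iigp1 0.0219 and Slpi -1.03 in DKO. With the top cell left out (also chosen later), Cxcl10 was 1.28 in TAZKO and Iigp1 0.30 in DKO.

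Limits are the single mouse per genotype, the choice of cells by few UMIs of Cxcr6, hepatocyte RNA in the barcodes, whose source was not tested, and doublets, for which no caller was run. Shares of cells with a UMI depend on depth, which is lowest in DKO. UMIs of near-identical genes (Trgc, Trgv, Klra, Mup) cannot be told apart with certainty. Residence and protein were not measured.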
